A study of Mus musculus with 2 samples.

Results

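The regions described here hold 8 mouse genes of the machinery that writes, maintains and oxidises DNA methylation: Dnmt1, Uhrf1, Dnmt3a, Dnmt3b, Dnmt3l, Tet1, Tet2 and Tet3. Sites were taken by genome coordinates, each annotated gene with its flanks. This gave 1018 listed methylated sites of the 1370254 listed in either library. The undifferentiated library listed 745 of them and the differentiated library 825. CCGG sites, which hold a CpG, made up 567 of the 1018, and CCAGG or CCTGG sites, where the methylated cytosine lies outside CpG, the other 451.

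F9, an embryonal carcinoma line of the mouse that grows as stem-like cells, was profiled for methylation before and after differentiation. The undifferentiated library came from cells kept on gelatin-coated plates. The differentiated library came from cells at day 4 after plating in low-attachment dishes with 1 µM retinoic acid. Both are 1 library of the same line, no genetic change is labelled in either, and the names of both libraries also carry the word untreated. In methylRAD, the enzyme FspEI cuts beside a methylated cytosine and the short fragments are sequenced, so the count of a site rises with how often it was methylated. FspEI also cuts at 5-hydroxymethylcytosine, and the counts cannot tell that base from 5-methylcytosine. These data hold no RNA measurement, so neither the labelled cell state nor the activity of these genes could be checked against expression.

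Dnmt1 copies CpG methylation onto the new strand after replication, and Uhrf1 brings it to hemimethylated DNA. Dnmt3a and Dnmt3b methylate cytosines that were unmethylated before, and Dnmt3l, which has no catalytic activity of its own, stimulates them. Tet1, Tet2 and Tet3 oxidise 5-methylcytosine, the first step of active demethylation. Pluripotent cells are known for high levels of Dnmt3b, Dnmt3l and Tet1, and Dnmt3a has an internal promoter that drives a shorter isoform in such cells.

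The libraries held 20550450 and 21291239 counts, of which 16687588 and 15705436 were at CCGG sites, with median CCGG counts per site of 19 and 17. No site below 5 counts is listed, so an unlisted site may have had up to 4. Each CCGG site was compared between the libraries, relative to all other CCGG counts, by a two-sided Fisher's exact test. P-values were adjusted by Benjamini-Hochberg over 763323 sites, and a site is called where the adjusted p was under 0.05. With 1 library per group this compares 2 libraries and not 2 conditions, and no spread between replicates is known. Of all sites tested, 23.5% were called, 11.6% higher and 11.9% lower in the differentiated library. In the 8 regions 122 of 538 tested sites were called (22.7%), 68 higher and 54 lower, a share close to that of the genome. That split depended on the scaling: it was 54 higher and 67 lower when libraries were scaled by their median site ratio, which lowers every log2 ratio by 0.16, and 48 higher and 71 lower with the divisors behind the deposited RPM values, which lower it by 0.23.

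CCGG sites at the transcription starts of these genes were almost all unlisted. RefSeq promoter sequences (GRCm38.p6) were available for 15 starts of the 8 genes and run from 250 bases before to 50 bases after each start. In Dnmt3a, Dnmt3b, Tet1, Tet2 and Tet3 the first start lies inside the annotated gene, whose 5′ end is not among the 15. In Tet3 the start is at 83441678 and the 5′ end at 83457208, and in Dnmt3a they are at 3806980 and 3801559. Promoter and gap values below refer to the starts used and not to these ends. The stretches printed here show the CCGG words near the starts of Dnmt3a, Dnmt3b and Tet2, genes on which the results below turn, each from 250 bases upstream to the base before the start, 5′ to 3′ on the gene's strand, with CCGG in capitals. The Dnmt3a stretches are chr12:3806730-3806979 for the first start and chr12:3891494-3891743 for the internal start, both on the plus strand. The Dnmt3b stretch is chr2:153649199-153649448 on the plus strand and the Tet2 stretch chr3:133544391-133544640 on the minus strand.
Dnmt3a, first start: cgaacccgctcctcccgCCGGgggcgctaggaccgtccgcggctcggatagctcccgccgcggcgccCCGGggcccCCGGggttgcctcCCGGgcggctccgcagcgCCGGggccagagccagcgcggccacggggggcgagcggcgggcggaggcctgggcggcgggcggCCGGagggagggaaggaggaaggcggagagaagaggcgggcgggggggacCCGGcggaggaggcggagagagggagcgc
Dnmt3a, internal start: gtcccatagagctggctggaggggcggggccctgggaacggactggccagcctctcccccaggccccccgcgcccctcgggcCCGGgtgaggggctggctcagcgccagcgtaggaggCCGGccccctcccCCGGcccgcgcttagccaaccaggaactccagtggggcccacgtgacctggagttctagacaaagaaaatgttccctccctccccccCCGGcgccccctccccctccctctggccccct
Dnmt3b: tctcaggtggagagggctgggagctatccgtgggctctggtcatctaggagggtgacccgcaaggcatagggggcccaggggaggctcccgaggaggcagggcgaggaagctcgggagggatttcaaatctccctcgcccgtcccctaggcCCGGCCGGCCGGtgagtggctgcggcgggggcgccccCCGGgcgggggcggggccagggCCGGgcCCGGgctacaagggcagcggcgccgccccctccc
Tet2: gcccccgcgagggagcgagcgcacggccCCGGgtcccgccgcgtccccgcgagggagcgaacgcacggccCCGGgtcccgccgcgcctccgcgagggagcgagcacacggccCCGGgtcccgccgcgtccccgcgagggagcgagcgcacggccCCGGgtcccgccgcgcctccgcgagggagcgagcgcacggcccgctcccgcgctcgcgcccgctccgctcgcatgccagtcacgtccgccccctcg

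The stretch before the first Dnmt3a start holds 7 CCGG words, that before the internal start 4, that before Dnmt3b 6 and that before Tet2 4. Of these, 1 was listed: the first CCGG before the internal Dnmt3a start, 168 bp upstream of it, was unlisted in the undifferentiated library and had 8 counts in the differentiated library. That difference was not called (adjusted exact p = 0.436, Fisher's exact test). The Tet2 words recur at a regular spacing in near-identical repeats, and how reads that fit several places were handled is not given in the sources used here.

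Across all 15 promoters of 300 bases there were 44 distinct CCGG words, each genome position counted once where windows overlap, 0 of them listed in the undifferentiated library, with an exact 95% upper bound of 8.04%, and 1 in the differentiated library, 2.27% (0.0575 to 12.02%). CCGG is its own reverse complement, so 1 search covers both strands. Over all 32851 promoters of the same table, 52.8% held the word, and 10.3% and 11.7% of 39736 words were listed. Among the 2568 promoters with at least 5 words, listed shares were lower, 1.86% and 4.66%. The upper bounds for the 8 genes therefore lie below the share over all promoters in the undifferentiated library, and above it in the differentiated one, and both intervals include the share of the promoters with at least 5 words. Dnmt3a had 16 words over its 3 starts, Dnmt3b 7, Uhrf1 6, Tet2 5, Dnmt1 and Tet3 4 each and Tet1 2. The 3 Dnmt3l promoters held no CCGG, so these data say nothing of CCGG methylation there.

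Within 1 kb of a start, 13 CCGG sites were listed, 8 in each library and 3 in both, with 85 undifferentiated and 102 differentiated counts. Dnmt3b, Tet1 and Tet3 had no listed CCGG site in this range in either library. Of 11 tested, 2 were called, both at Tet2, a share no higher than the 23.5% called over all tested sites. The 2 Tet2 sites lay 620 and 629 bp upstream of the Tet2 start, at positions 133545010 and 133545019 of chromosome 3. They lie inside the annotated gene, whose 5′ end is at 133545136. Both were unlisted in the undifferentiated library and had 20 counts in the differentiated library. Relative to total CCGG counts this was at least 5.31-fold higher (adjusted exact p = 0.00597). They are 9 bp apart and can share the same reads, so they count as 1 observation.

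None of the other listed sites near starts was called. At the first Dnmt1 start, the site 126 bp downstream had 20 and 17 counts, and the site 994 bp downstream had 16 counts and was then unlisted (adjusted exact p = 0.0516). At the first Dnmt3l start, where the gene overlaps Aire, the site 182 bp downstream had 15 and 9 counts, the site at 363 bp had 8 and was then unlisted, and the site at 715 bp had 8 and 15. At the second Dnmt3l start, 1 site 0.249 kb downstream was unlisted and then had 8 counts. Around the internal Dnmt3a start, the site 696 bp upstream had 7 counts and the site 221 bp downstream 5, both only in the undifferentiated library. Upstream of Uhrf1, 1 site at 522 bp had 6 counts in the undifferentiated library only, and 1 at 800 bp had 5 in the differentiated library only.

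Between the nearest listed CCGG sites on either side, the Tet2 start lay in a gap of 7.72 kb (undifferentiated) and 17.9 kb (differentiated). The Tet1 gap was 9.93 and 15.5 kb and the Dnmt3b gap 9.54 and 8.79 kb. The Dnmt1 starts at 6.91 and 7.27 kb into the gene shared a gap of 14.0 and 13.4 kb, while the first Dnmt1 start, with 1.32 kb in both, sat among listed sites. The Tet3 gap was 6.75 and 3.72 kb, the Uhrf1 gap 4.94 and 5.22 kb, and that at the first Dnmt3a start 4.60 and 5.26 kb. The internal Dnmt3a start had 0.917 and 1.53 kb, and the Dnmt3l starts 1.49 to 5.24 kb. Over all starts of the promoter table the median gap was 6.42 and 6.17 kb, with quartiles of 3.21 to 12.8 kb and 2.88 to 13.2 kb.

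**Figure D1:**
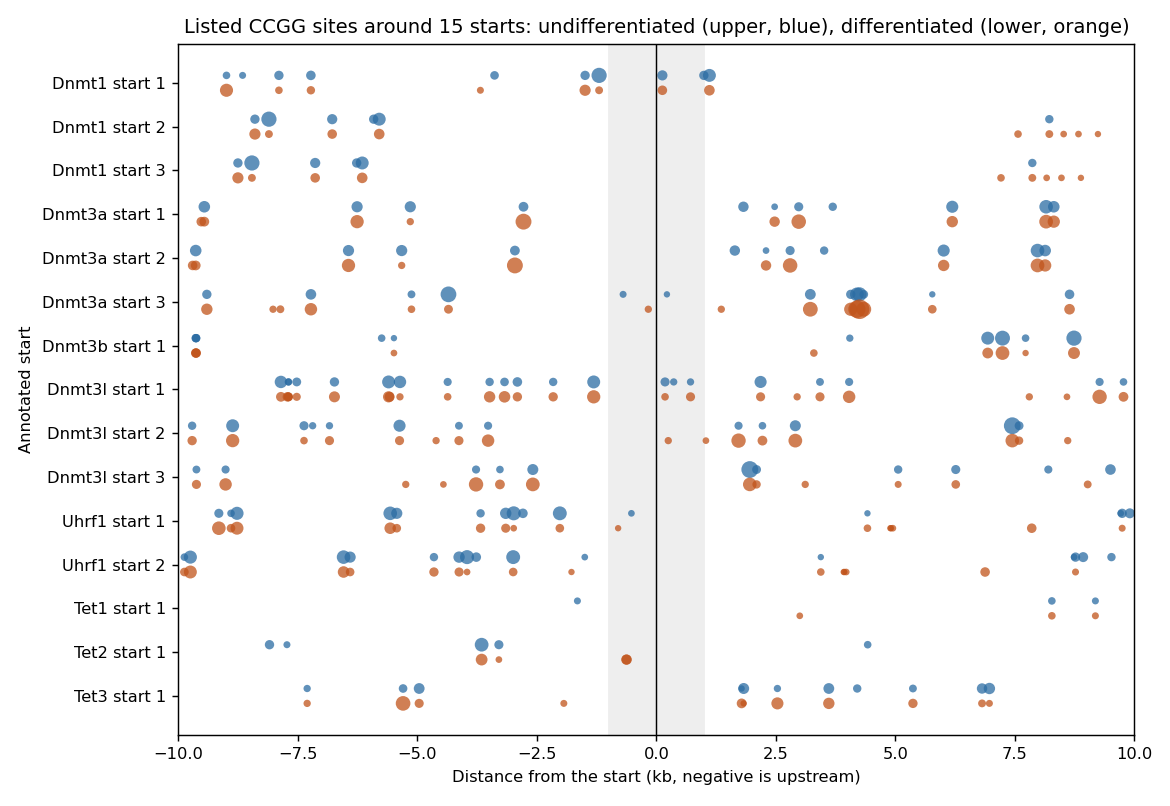
Listed CCGG sites within 10 kb of each of the 15 annotated starts, 1 row per start, against the distance from the start in kb on the gene's strand. Dot area grows with the count, colours mark the libraries and the grey band marks 1 kb on either side of the start. The band is empty for Dnmt3b, Tet1 and Tet3 and holds the pair of Tet2 sites listed only in the differentiated library.

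Inside the genes, away from the starts, methylation counts were common and differed between genes in direction. Summed over the annotated gene, CCGG counts were higher in the differentiated library for Dnmt3a and lower for Dnmt3b and Tet1. These 3 directions, with 95% intervals clear of 0, were the same in all 8 alternative settings. Ratios are given as log2 of counts per 1000000 CCGG counts, differentiated over undifferentiated, with exact binomial intervals that cover counting error only. Unlisted sites enter with 4 counts. Sites within 16 bp of each other can share reads but were summed as separate sites, so these intervals can be too narrow. Whether a site lies in an exon or an intron was not used here.

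Dnmt3a had 1939 undifferentiated and 2401 differentiated counts, a log2 ratio of 0.39 (0.30 to 0.47). Dnmt3b had 761 and 561, a log2 ratio of -0.34 (-0.50 to -0.18). Tet1 had 531 and 388, a log2 ratio of -0.33 (-0.52 to -0.14). Thus Dnmt3a and Dnmt3b, both de novo methyltransferase genes, differed in opposite directions, and their intervals did not overlap.

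The other genes lay nearer to 0. Dnmt3l had 240 and 289 counts, a log2 ratio of 0.30 (0.06 to 0.55). Uhrf1 had 351 and 389, a ratio of 0.24 (0.04 to 0.45). Tet3 had 1113 and 1227, a ratio of 0.21 (0.09 to 0.32), and Dnmt1 1254 and 1316, a ratio of 0.14 (0.03 to 0.25). The intervals of these 4 genes reached 0 under median-ratio scaling, where Dnmt1 turned to -0.01, and under the RPM divisors, where Dnmt1 was at -0.08 and Tet3 at -0.02. Tet2 had 567 and 525 counts and a ratio of 0.01 (-0.16 to 0.18), which was -0.14 and -0.22 under these scalings, the second with an interval below 0.

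All 8 values lay within the range that held the middle 90% of 12901 protein-coding genes with at least 200 summed counts, -0.44 to 0.55, around a median of 0.07. Of those genes, 87.8% had a lower ratio than Dnmt3a, 7.99% a lower ratio than Dnmt3b and 8.59% a lower ratio than Tet1. Over the 8 genes together, counts were 6756 and 7096, and 78 of 337 tested sites were called (23.1%), 47 higher and 31 lower, a split of 36 and 39 under median-ratio scaling and of 32 and 43 under the RPM divisors. The median log2 ratio over those sites was 0.23, and 0.17 with the flanks included. Over all sites tested in the genome, inside genes or not, it was 0.02, with quartiles of -0.91 to 0.79. The scalings above lower these medians alike. In the flanks, 44 of 201 tested sites were called, 21 higher and 23 lower. The flanks of Dnmt3a had a ratio of -0.01, those of Dnmt3b -0.23, and those of Tet1 0.20, each with an interval that included 0. Under this scaling, only the Dnmt3l flanks had an interval clear of 0, with a log2 ratio of -0.14 (-0.28 to -0.01), opposite in sign to the Dnmt3l gene. Their 963 and 817 counts include the site at 78081572, with 63 and 5. Whether the interval stays clear of 0 without that site was not tested.

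**Figure D2:**
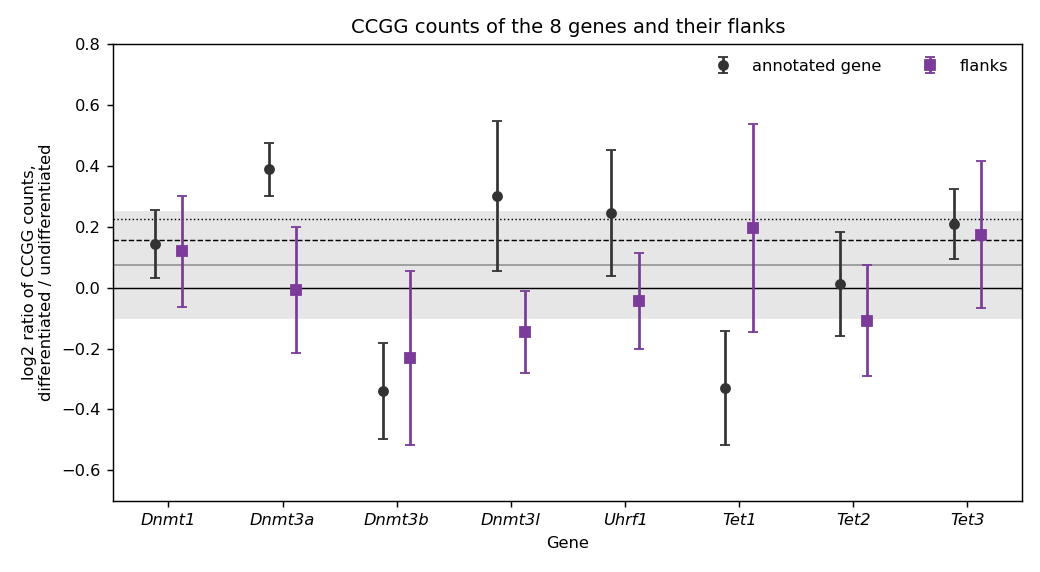
Log2 ratio of CCGG counts, differentiated over undifferentiated, for each gene (circles) and its flanks (squares), with 95% exact binomial intervals for counting error. The grey band and line give the quartiles and median of 12901 genes, and the dashed and dotted lines mark where 0 falls under median-ratio scaling and under the RPM divisors. The circles of Dnmt3a, Dnmt3l and Uhrf1 lie above and those of Dnmt3b and Tet1 below all 3 zero lines. Of these, Dnmt3a, Dnmt3b and Tet1 have their whole interval beyond the lines.

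Per 10 kb of gene, the number of listed CCGG sites was 9.30 (undifferentiated) and 9.87 (differentiated) in Dnmt1, and 8.93 and 8.44 in Uhrf1. Tet3 held 7.06 and 7.38, Dnmt3a 6.91 and 7.0, Dnmt3b 6.78 and 6.52 and Dnmt3l 6.56 and 7.50. Tet1, with 3.50 and 3.38, and Tet2, with 2.82 and 2.46, held fewer, below the median of 5.02 and 4.91 over the 12901 genes. The number of CCGG words in each gene was not counted, and its part in this order was not tested.

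Dnmt1 (chr9:20907206-20959888, minus strand) had 59 listed sites, of which 8 were called higher and 6 lower among 56 tested. Distances below are from the first start of the gene, positive in the direction of transcription. Its most counted site, near the 3′ end at position 20908001, had 55 and 92 counts, a log2 ratio of 0.83 (adjusted exact p = 0.00584), and was not called under the RPM divisors (adjusted exact p = 0.0629). The site with the smallest ratio, at 20932150, had 26 counts and was then unlisted, at least 6.12-fold lower (adjusted exact p = 0.00108). Called sites of both directions were thus mixed within the gene, and 1.20 kb upstream of the first start a site fell from 50 to 10 counts.

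Neighbouring genes of the Dnmt1 region also held called rises. At position 20895062, in Eif3g, which encodes a translation initiation factor subunit, a site had the largest ratio of the region, unlisted and then 25 counts, at least 6.64-fold higher (adjusted exact p = 0.000704). Upstream, S1pr2, a sphingosine 1-phosphate receptor gene, held 4 sites that rose, with 9 and 36 counts, 9 and 37, and unlisted with then 23 and 17. The 10 kb window that holds 3 of them had 9 and 95 listed counts (log2 ratio 2.01, adjusted exact p = 1.26e-09).

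Uhrf1 (chr17:56303337-56323486, plus strand) had 22 listed sites, and 2 rose and 1 fell among 19 tested. Its most counted site, at 56320540 near the 3′ end, had 65 and 87 counts and was not called (log2 ratio 0.51, adjusted exact p = 0.109). Inside the gene, the site at 11.96 kb rose from 6 to 31 counts, that at 7.86 kb from unlisted to 17, and that at 9.91 kb fell from 19 to unlisted.

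Upstream of Uhrf1, 3 sites fell, between its start and the neighbouring gene Arrdc5. The site at 56300352, 2.98 kb upstream, had 42 and 6 counts, a log2 ratio of -2.72 (adjusted exact p = 1.48e-05). The sites 2.79 and 2.02 kb upstream had 17 and then unlisted, and 41 and 13 counts. The 10 kb window from 56300001, which holds the starts and these sites, had 137 and 64 counts (log2 ratio -1.0, adjusted exact p = 1.54e-05), and -0.66 without the site at 56300352. Farther upstream, a site at 56293144 was unlisted and then had 22 counts, at least 5.84-fold higher (adjusted exact p = 0.00259).

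Dnmt3a (chr12:3801559-3914443, plus strand) had 87 listed sites, and 18 rose and 5 fell among 84 tested. At 3909073, the most counted site had 57 and 74 counts and was not called (log2 ratio 0.46, adjusted exact p = 0.197). The largest rise, at 3879358, was from 5 to 33 counts, a log2 ratio of 2.81 (adjusted exact p = 5.95e-05). The largest fall, at 3855100, was from 36 counts to unlisted, at least 8.47-fold lower (adjusted exact p = 1.53e-05).

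The most changed Dnmt3a window surrounds the internal start, which lies 84.8 kb from the first start. In the window from 3890001 to 3900000, counts were 152 and 312, a log2 ratio of 1.09 (adjusted exact p = 1.18e-12). Its 5 called sites lie 3.22 to 4.34 kb past the internal start, and all rose: 23 to 47, 16 to 37, 40 to 66, 43 to 86 and 13 to 47 counts. Upstream of that start, within Gm31623, a long non-coding RNA gene that overlaps Dnmt3a there, the site at 80.4 kb fell from 54 to 14 counts. Windows from 3800001, 3860001 and 3900001 were also higher, with log2 ratios of 0.72, 0.71 and 0.52, and 1 window past the 3′ end was lower, with 59 and 27 counts.

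Dnmt3b (chr2:153649411-153687730, plus strand) had 27 listed sites, all tested, and 1 rose and 5 fell. At 153686621, the most counted site had 62 and 49 counts and was not called (log2 ratio -0.25, adjusted exact p = 0.569). The falls were from 46 to 10 counts at 15.3 kb, 56 to 24 at 15.9 kb, 43 to 10 at 33.3 kb, 48 to 10 at 36.0 kb and 34 to 6 at 36.9 kb. The last, at 153686346, had the smallest ratio, -2.41 (adjusted exact p = 0.000389). The only rise, at 153678276 between them, was from 30 to 52 counts (log2 ratio 0.88, adjusted exact p = 0.0362). It was not called under median-ratio scaling (adjusted exact p = 0.0928).

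The 10 kb windows of Dnmt3b differed in direction. That from 153650001, next to the start, had 157 and 119 counts and was not called (log2 ratio -0.30, adjusted exact p = 0.177). That from 153660001 had 204 and 105 counts (log2 ratio -0.87), that from 153670001 had 194 and 249 (0.47), and that from 153680001, at the 3′ end, had 206 and 88 (-1.14, adjusted exact p = 1.49e-08). Of the 4 windows, 2 were called lower, 1 was called higher and 1 was not called. A pseudogene, Dnmt3b-ps1, is annotated past the 3′ end, and whether the reads of copies were told apart is not given in the sources used here.

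Dnmt3l (chr10:78042287-78063622, plus strand) had 18 listed sites, all tested, and 2 rose and 0 fell. These were 11 to 32 counts at 4.03 kb and 11 to 44 at 9.28 kb. The window from 78050001, in the gene, had 120 and 175 counts (log2 ratio 0.49), and 0.20 without the second of these sites.

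The larger changes of the Dnmt3l region lay outside the gene. The largest fall, from 63 to 5 counts at 78081572, 39.3 kb past the start and outside annotated genes, had a log2 ratio of -3.57 (adjusted exact p = 3.76e-10). The largest rise, at 78036705 in Aire, the gene of a thymic transcription regulator, was from unlisted to 19 counts, at least 5.05-fold (adjusted exact p = 0.00903). Its most counted site, 15.7 kb upstream at 78026591, fell from 77 to 42 (log2 ratio -0.79, adjusted exact p = 0.0239), and its window had a log2 ratio of -0.68, or 0.09 without it.

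Tet1 (chr10:62804570-62887469, minus strand) had 35 listed sites, and 1 rose and 4 fell among 32 tested. The falls lay in the 3′ part of the gene, 58.6 to 77.6 kb from the start: 23 to 6, 27 to unlisted, 48 to 20 and 27 to 8 counts. The second of these, at 62824761, was at least 6.35-fold lower (adjusted exact p = 0.000704). At 62825963, the most counted site had 47 and 26 and was not called (log2 ratio -0.77, adjusted exact p = 0.108), but was under median-ratio scaling (adjusted exact p = 0.0433) and the RPM divisors (0.0252). The 10 kb window that holds it, from 62820001, had 169 and 71 counts, a log2 ratio of -1.01 (adjusted exact p = 4.69e-06).

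Nearer to the start, the window from 62860001 was higher, with 14 and 40 counts (log2 ratio 1.24, adjusted exact p = 0.0105), and 0.60 without the site at 62866813. The rise in Tet1, at 62866813, where the long non-coding RNA gene Gm51805 overlaps it, was from unlisted to 20 counts, at least 5.31-fold (adjusted exact p = 0.00597). The window with the largest ratio of the Tet1 region lies past the 3′ end, from 62790001, partly in Ccar1, with 24 and 61 counts (log2 ratio 1.39, adjusted exact p = 0.000128). It rested on 1 site, at 62794423, with 14 and 55 counts, and had a log2 ratio of 0.09 without it.

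Tet2 (chr3:133463677-133545136, minus strand) had 27 listed sites, and 5 rose and 4 fell among 25 tested, with a total close to equal. The 5 rises include both sites of the pair upstream of the start, which can share reads. The site with the most counts, at 133486295, rose from 39 to 94, a log2 ratio of 1.36 (adjusted exact p = 1.71e-05). Its neighbour 107 bp away fell from 35 to 11 counts. The largest fall, at 133488247, was from 42 to 5 counts, a log2 ratio of -2.98 (adjusted exact p = 5.37e-06). Near the 3′ end, sites at 76.4 and 77.4 kb fell from 50 to 10 and from 68 to 32 counts, and 1 at 79.8 kb rose from 27 to 47. The most changed window, from 133490001, held 1 listed site, with 15 and 43 counts (log2 ratio 1.61, adjusted exact p = 0.000898). The window from 133460001, at the 3′ end, was called lower, with 232 and 157 counts (log2 ratio -0.50, adjusted exact p = 0.00425). Its log2 ratio was -0.25 without the site at 133468037.

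Tet3 (chr6:83362373-83457208, minus strand) had 80 listed sites, and 10 rose and 6 fell among 76 tested. Its start, at 83441678, lies inside the annotated gene, so some gene sites, among them 83455016, lie upstream of the start. The site with the most counts, at 83370537, rose from 31 to 63, a log2 ratio of 1.11 (adjusted exact p = 0.00388). The largest rise, at 83455016, was from unlisted to 24 counts, at least 6.38-fold (adjusted exact p = 0.00109), and the largest fall, at 83390028, from 33 counts to unlisted, at least 7.76-fold (adjusted exact p = 5.60e-05). Both directions also occurred side by side: 43 bp apart, 1 site fell from 24 to 5 counts and the other rose from 5 to 18. The window from 83440001, which holds the start, had 44 and 76 counts (log2 ratio 0.75, adjusted exact p = 0.0202) but -0.13 without the site at 83446978, and was not called under median-ratio scaling (adjusted exact p = 0.0696).

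**Figure D3:**
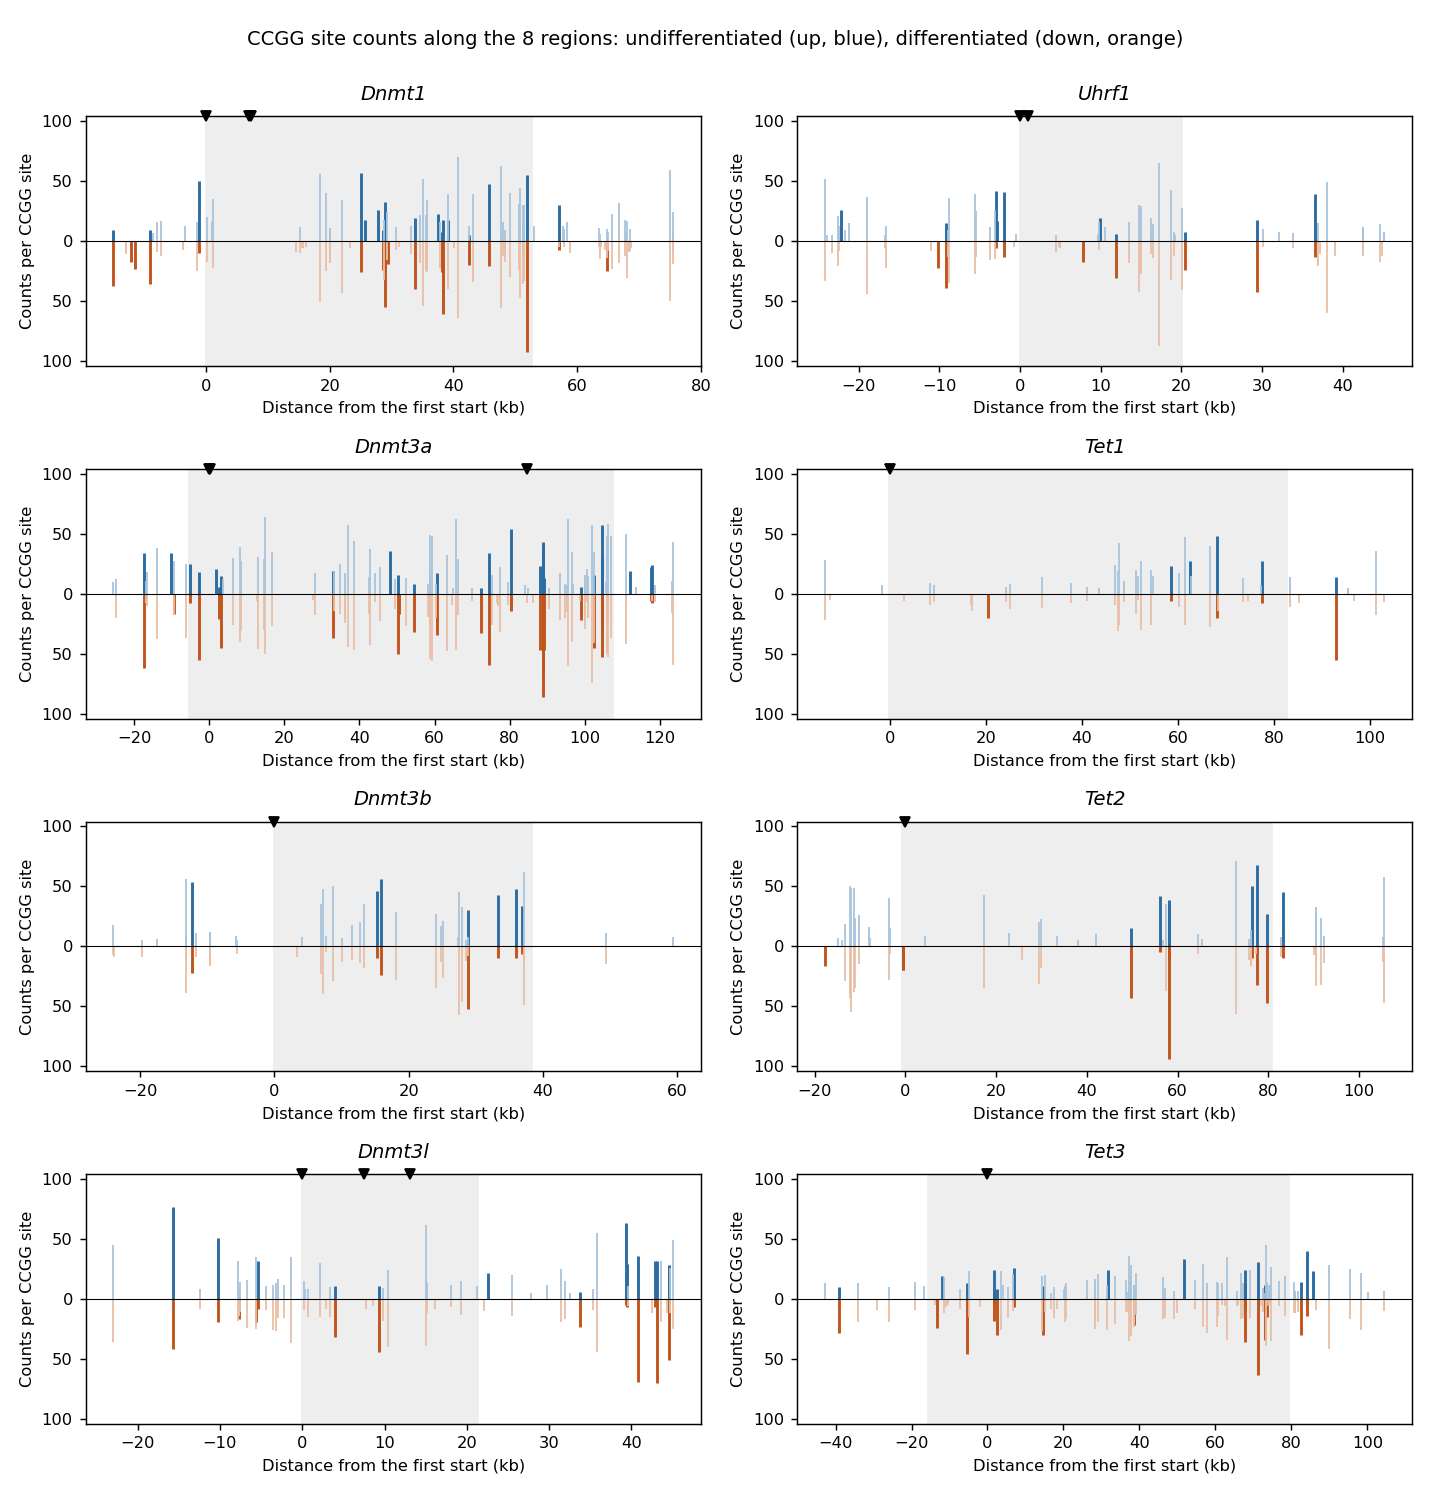
Counts of listed CCGG sites along the 8 regions, undifferentiated upward and differentiated downward, against the distance from the first start in kb. Dark bars are called sites, the grey band is the annotated gene and triangles mark starts. The 5 dark bars past the internal Dnmt3a start are longer below the axis, and those at the 3′ ends of Dnmt3b and Tet1 are longer above it.

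Neighbouring called sites often moved in opposite directions. Of 31 pairs of neighbouring called sites 17 to 1000 bp apart in the 8 regions, 13 were opposite (41.9%), beside 45.6% of 23848 such pairs in the genome. In 10 kb windows, 21 of 72 tested were called, 14 higher and 7 lower, where 32.7% of 148229 were called in the genome, 18.4% higher and 14.3% lower. With median-ratio scaling the split of windows was 8 higher and 14 lower, and under the RPM divisors into 8 and 15.

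Outside CpG, more sites of the 8 regions were listed in the differentiated library, 346 beside 264, with 159 in both. Counts at CCAGG and CCTGG were 3432 and 4782, a log2 ratio per CCGG total of 0.57 (0.50 to 0.63), close to 0.62 over the genome. For sites more than 100 bp from a listed CCGG the ratio was 0.81, beside 0.91 in the genome, and for sites listed in both libraries 0.35, beside 0.36. Sites within 16 bp of a CCGG can share its reads, and these had 1505 and 1848 counts.

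As a share of all counts in the gene, CCAGG and CCTGG made up 20.1% and 28.6% in Tet3, 32.3% and 36.4% in Dnmt3a, 33.3% and 39.5% in Dnmt3l and 28.3% and 31.3% in Dnmt1. Uhrf1 had 25.5% and 24.3%. Dnmt3b, with 18.5% and 18.2%, Tet1, with 9.23% and 13.6%, and Tet2, with 9.42% and 9.48%, had the lowest shares, beside 18.8% and 26.2% in the genome. Exact intervals of the 2 libraries did not overlap in Dnmt3a and Tet3, both higher in the differentiated library, and overlapped in the other 6 genes. In Dnmt3b, the CCAGG with the most counts fell from 58 to 24 together with the CCGG 7 bp away (56 to 24). Within 1 kb of starts, a CCTGG 737 bp upstream of Dnmt3l, in Aire, was the highest, with 36 and 46 counts.

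**Figure D4:**
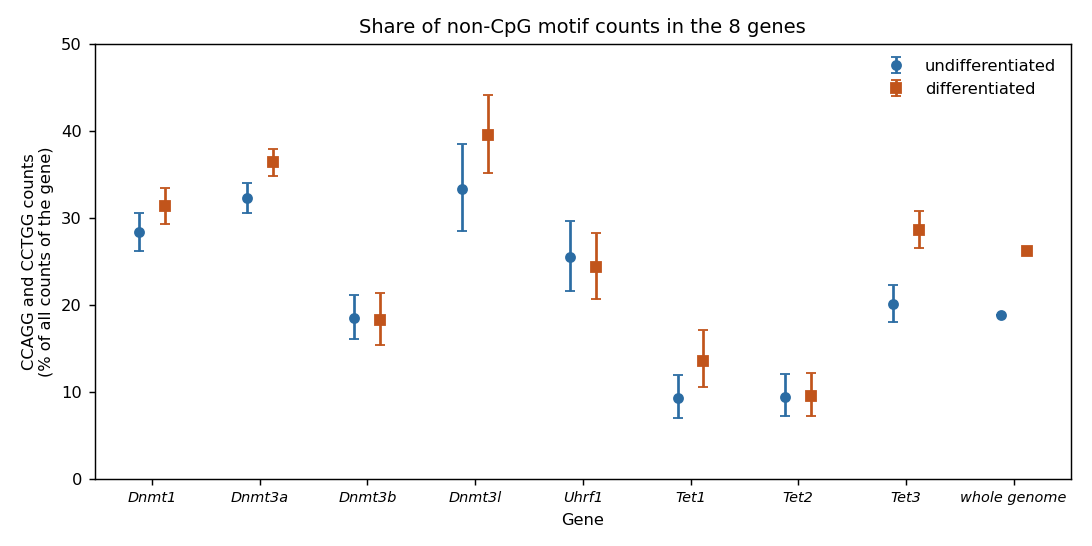
Share of counts at CCAGG and CCTGG sites, in percent of all counts in the gene, for each gene and the whole genome in both libraries, with 95% exact binomial intervals for counting error. Tet1 and Tet2 have the lowest shares in both libraries, and Tet3 moved from 20.1% to 28.6%, near the genome's 18.8% and 26.2%.

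Other genes of methylation control were described by the same measures: 21 in all, among them readers of methylated DNA, base excision repair enzymes, Dnmt1 partners, histone demethylases and methyltransferases, and isocitrate dehydrogenases. Of these, 19 had listed CCGG sites, and 24 sites rose and 27 fell among 244 tested (20.9%, beside 23.5% in the genome). Of their 54 promoter CCGG words, 0 were listed in either library, beside 10.3% and 11.7% over all promoters and 1.86% and 4.66% in those with at least 5 words. Near the starts but outside these words, Kdm1a had 5 listed sites and Usp7 2 in the differentiated library, and 0 in the undifferentiated library. The other genes with listed CCGG sites had 0 near starts in both libraries. Counts in the gene had intervals above 0 for Mbd3, a subunit of the NuRD complex, with 188 and 291 counts (log2 ratio 0.66), for Ehmt2, a histone H3 lysine methyltransferase (0.52), and for Trim28 and Apex1, which rested on 1 and 2 sites and whose lower limits, 0.03 and 0.16, are smaller than the shift under the RPM divisors. They lay below 0 for Idh2, a mitochondrial isocitrate dehydrogenase, with 377 and 224 counts (-0.64), Dppa3, which protects methylation in the early embryo, with 71 and 35 (-0.72), and Ehmt1, the partner of Ehmt2 (-0.17). The median over the 19 genes was 0.02.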

How the data were processed

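Genomic DNA of 2 F9 cell libraries was digested with FspEI, per the labels' protocols. Per the submitters' processing notes, FastQC 0.11.3 and Bowtie2 2.3.3 were used and the build was GRCm38; how multiply mapped reads were handled is not given in the sources used here. Each deposited table lists, per site, a position, alignment type, motif and read count, and the deposited counts, the authors' reads per site, are whole numbers from 5 upward. The column the authors named RPM was treated as a score, since its sum exceeds 1000000, and its divisors served only as an alternative scaling. Positions are the first base of the motif. At 50 positions the motif differed between libraries, and these were left out.

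Genes and starts came from RefSeq tables of GRCm38.p6. An unlisted site was given 4 counts. Sites with 10 or more counts over both libraries and 10 kb windows with 50 or more were tested with Fisher's exact test and Benjamini-Hochberg adjustment over the genome; gene totals carry exact binomial intervals and no test. Intervals cover counting error only, folds written as "at least" follow from the 4 counts and carry no counting error, and reads without molecular identifiers are not independent molecules. On simulated data, 69% of 200 sites changed 4-fold were called among 754442, and 49% of 200 windows changed 2-fold among 147455. There, 0 were called in the wrong direction, and 3 unchanged sites and 3 unchanged windows were called. In the real data 23.5% of sites and 32.7% of windows were called, and the spread between replicates is unknown. The simulated rates therefore cannot be carried over to the real calls. Named in each region were the CCGG site with the most counts, the called sites with the largest and smallest ratio, listed sites near starts and the most changed called window; further sites were chosen after their values were seen. The genes, lists and tests were chosen with earlier results of these data known. Python 3.11.15, numpy 2.4.6, scipy 1.17.1, pandas 2.3.3 and matplotlib 3.10.9 were used.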

Additional observations from a re-analysis of the deposited data

How the results depend on the processing

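No paired analysis was possible because each group has 1 library. Windows called higher and lower changed from 14 and 7 to 8 and 14 under median-ratio scaling and to 8 and 15 under the RPM divisors; 5 kb windows gave 40 calls of 111 tested (24 and 16) and 20 kb windows 12 of 38 (8 and 4) in place of 21 of 72, with 33.2%, 32.7% and 32.7% called in the genome. Genes with intervals clear of 0 numbered 7 (5 above, 2 below), 3 (1 above) under median-ratio scaling and under the RPM divisors 4 (1 above); 3 were above 0 with the 1000 highest sites left out of the scaling and without the highest site of each gene (Dnmt3a, Dnmt3l and Tet3), and 3 over whole regions (Dnmt1, Dnmt3a and Tet3). The Tet2 ratio, 0.01 with an interval around 0, was below 0 in 7 of 8 alternatives, from -0.215 (RPM divisors) to -0.024 (unlisted sites at 0 counts). Other reversed ratios were Dnmt1 at -0.014 (median ratio) and -0.084 (RPM divisors), Tet3 at -0.018 (RPM divisors) and Dnmt3l at -0.040 (whole region). With unlisted sites at 0 counts, 88 sites in place of 68 were called higher and 82 in place of 54 lower, 47 of these in place of 31 within genes, while 38.8% of sites in the genome were called. With sites listed in both libraries only, 20 were lower within genes. Within 2 kb of starts 18 and 19 CCGG sites were listed, and within 5 kb 54 and 57, in place of 8 and 8. The non-CpG ratio was 0.81 far from CCGG and 0.35 at sites in both libraries. Of 196 values for the 24 named sites, 191 kept their direction and side of the threshold, 3 lost the call (Dnmt3b 153678276 under 2 scalings, Dnmt1 20908001 under 1) and 2 gained it (Tet1 62825963), and 0 reversed; of 47 for the 8 windows, 45 kept it and 2 lost it. Named sites unlisted in a library have no ratio with 0 counts or over sites in both. Outermost gene ends in place of the starts gave 8 and 8 listed CCGG sites within 1 kb. That setting and the background over genes were added after seeing the data. Counts this low limit single sites: 29 of 567 could not be tested.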
